A study of Arabidopsis thaliana with 4 samples.

Results

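WRKY proteins are plant transcription factors named after the WRKYGQK stretch of their DNA-binding domain. Transcripts of the family were followed in Arabidopsis thaliana seedlings that overexpress ERF4, an ethylene response factor with an EAR repression motif. The members were 57 listed WRKY loci, found by locus identifier among the 25665 genes with a probe on the array, and each was read by 1 probe. All 57 loci carry a WRKY name in RefSeq as symbol or synonym, and 55 of them as the symbol itself, WRKY1 and WRKY44 being listed there as ZAP1 and TTG2.

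Total RNA of Columbia-0 seedlings aged 14 days was hybridised on 4 two-colour Agilent arrays. Each array carried 1 biological replicate of 35S:AtERF4-HA in one dye and of the control, 35S:NLS-GFP-HA, in the other. Both transgenes were thus under the 35S promoter, which is active in most plant tissues, and both products bore an HA tag, the control one being a green fluorescent protein with a nuclear localization signal. Many plants of both genotypes shared a plate of MS agar with 0.5% sucrose in each replicate, under 16 h of light and 8 h of dark at 23 °C. AtERF4-HA was in Cy3 on arrays 1 and 2 and in Cy5 on arrays 3 and 4. The labels do not state how many independent transgenic lines were used. The ERF4 transcript was read by a probe of the gene, so transgene and endogenous gene cannot be told apart.

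WRKY factors bind the W-box, a short DNA element around a TGAC core that is common in promoters of defence and senescence genes, and many of them bind the promoters of other WRKY genes and their own. Group I proteins have a pair of WRKY domains, and groups II and III have a single one with different zinc fingers. Mitogen-activated protein kinases phosphorylate some members, and VQ-motif proteins bind the WRKY domain of others.

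All ratios below are log2 ratios of AtERF4-HA over control as the dye labels give them. The authors' value table runs, by the same dyes, as control over AtERF4-HA on all 4 arrays, whereas the sample titles name AtERF4-HA first, as the numerator. If the dye labels were exchanged, every sign would turn. ERF4 (AT3G15210) had ratios of 1.08, 0.87, 0.89 and 1.04 on arrays 1 to 4, and its fitted ratio was 0.97 ± 0.07 (SE, 1.96-fold, limma adjusted p = 0.00016).

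Median spot signals were 122 to 140 in the green channel and 166 to 222 in the red one, local backgrounds had medians of 58 to 60, and ratios of all genes correlated between arrays at 0.78 to 0.90. All 4 arrays lay on 1 slide from 1 scan, so neither could be tested as a batch. Of the 6 root markers 5 were higher in AtERF4-HA, and their summed log2 signal was 14.5 to 14.9 there against 13.4 to 13.8 in control, where NRT2.1 was not well above background on any array. Of the 5 green shoot markers 2 were higher, with summed signals of 18.4 to 18.7 against 18.2 to 18.4. Of 3 flower markers AP3 and AG were not kept, and PI was lower (-2.47 ± 0.14), while neither of the 2 seed storage markers was kept. The part of these marker differences in the WRKY results was not tested. In seedling RNA, fewer cells that use a gene and less of its RNA per cell cannot be told apart.

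More WRKY genes were lower than higher in AtERF4-HA, and the larger differences all lay on the lower side. A gene was kept if its probe was well above background on all 4 arrays in one genotype, and 53 of the 57 members passed. Of these 53, 25 were called lower (47.2%), 11 higher (20.8%) and 17 not, with limma at an adjusted p under 0.05 over all 19443 genes tested. Over all genes 46.7% were called, 25.3% lower and 21.4% higher, so the share of members called higher was near that of all genes. By 2-fold or more, 13 members were lower (24.5%) and 0 higher, against 4.44% lower and 1.46% higher among all genes. WRKY30 and WRKY71 of these 13 were kept through the control channel alone. The count of members higher by 2-fold or more was 1 with plain background subtraction and 1 without replicate 1 or replicate 3, each time WRKY70, beside 2.99%, 1.44% and 1.62% of all genes. It was 3 (WRKY35, WRKY54 and WRKY70) with processed signals of the scanner software, beside 3.36% of all genes, and 3 with the authors' value table, beside 4.3%. Of all 9086 calls 4160 were higher and 4926 lower. The split was 5039 to 3921 with the scanner software's processed signals and 7892 to 3064 with the authors' value table. In the latter setting, 16 members were higher (30.2%), a share below the 40.5% of all genes. The 24 members lower there (45.3%) stood against 15.7% of all genes.

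The median ratio was -0.13 over the 53 members, with quartiles of -0.94 and 0.09, and -0.01 over all genes, with quartiles of -0.21 and 0.17. By array the members' median was -0.35, -0.12, -0.22 and -0.22. Since 6 members passed the filter through the control channel alone and 1 through the AtERF4-HA channel alone, the counts were also taken over the 46 members well above background in both channels on all arrays. Of those 46, 20 were lower (43.5%) and 11 higher (23.9%), against 24.7% and 21.7% of the 18716 genes that pass the same filter. By 2-fold or more 11 of the 46 were lower (23.9%), against 4.04% of those genes. The members' median under this filter was -0.07.

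**Figure D1:**
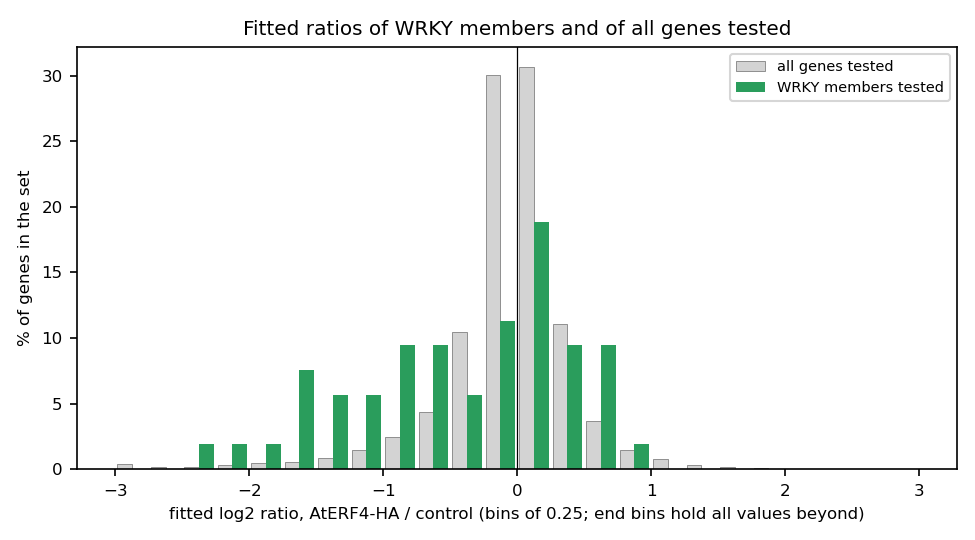
Share of genes, in percent of each set, by fitted log2 ratio of AtERF4-HA over control in bins of 0.25, for all 19443 genes tested (grey) and the 53 WRKY members tested (green), with values beyond the axis in the end bins. The green bars reach from the bin of WRKY60 at -2.26 to that of WRKY70 at 0.94, and the grey bars are highest beside 0.

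These values rest on the handling of 7 spots of array 1 and 25 of array 3, whose local background was over 2 times the array's median. For the background correction that local background was replaced by the array's median, and the ratios of these spots were left out. This choice was made after the data had been seen. The alternative with all spots in kept their own local backgrounds and their ratios. With all spots in, the fitted background of array 3 moved from 3.83 to -443 in green and from -19.2 to -625 in red, and the median absolute ratio of the called members on that array shrank from 0.74 to 0.25. On array 1 it shrank from 0.85 to 0.59, and on arrays 2 and 4 it did not move. With all spots in, 8 members were called higher (15.1%) and 19 lower (35.8%). Over all genes 4963 were then called, 2643 higher (13.6%) and 2320 lower (11.9%), so that more genes were higher than lower, the opposite of the balance above. By 2-fold or more 10 members were lower (18.9%) and 0 higher, against 2.76% and 0.941% of all genes. Corrections that fit no background distribution, namely no correction and plain subtraction, each gave 11 members higher (20.8%) and 25 lower (47.2%). Among all genes 21.5% were higher and 25.3% lower with no correction, and 20.6% and 23.4% with plain subtraction.

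**Figure D2:**
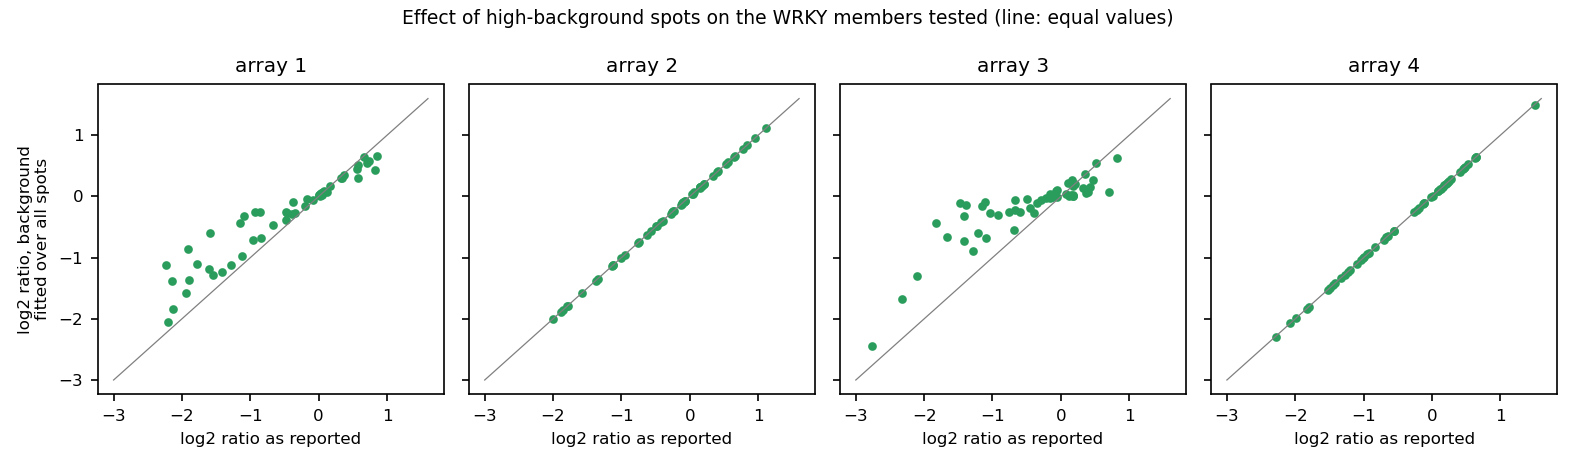
Log2 ratios of the 53 WRKY members tested on each array, with the background fitted over all spots (vertical axis) against the values reported here (horizontal axis); the line marks equal values. Points lie on the line for arrays 2 and 4 and are pulled towards 0 on arrays 1 and 3, where the median absolute ratio of called members was 0.59 and 0.25 in place of 0.85 and 0.74.

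Among the 36 called members, 35 had the same sign on all 4 arrays (66.0% of members tested, against 43.2% of all genes). The exception was WRKY21 (AT2G30590), with 0.01, 0.18, -0.68 and -0.71. For 31 of the 36 (58.5% of members tested, against 35.6% of all genes) the normalized log2 signals of both genotypes did not overlap, and these included all 13 members lower by 2-fold or more.

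**Figure D3:**
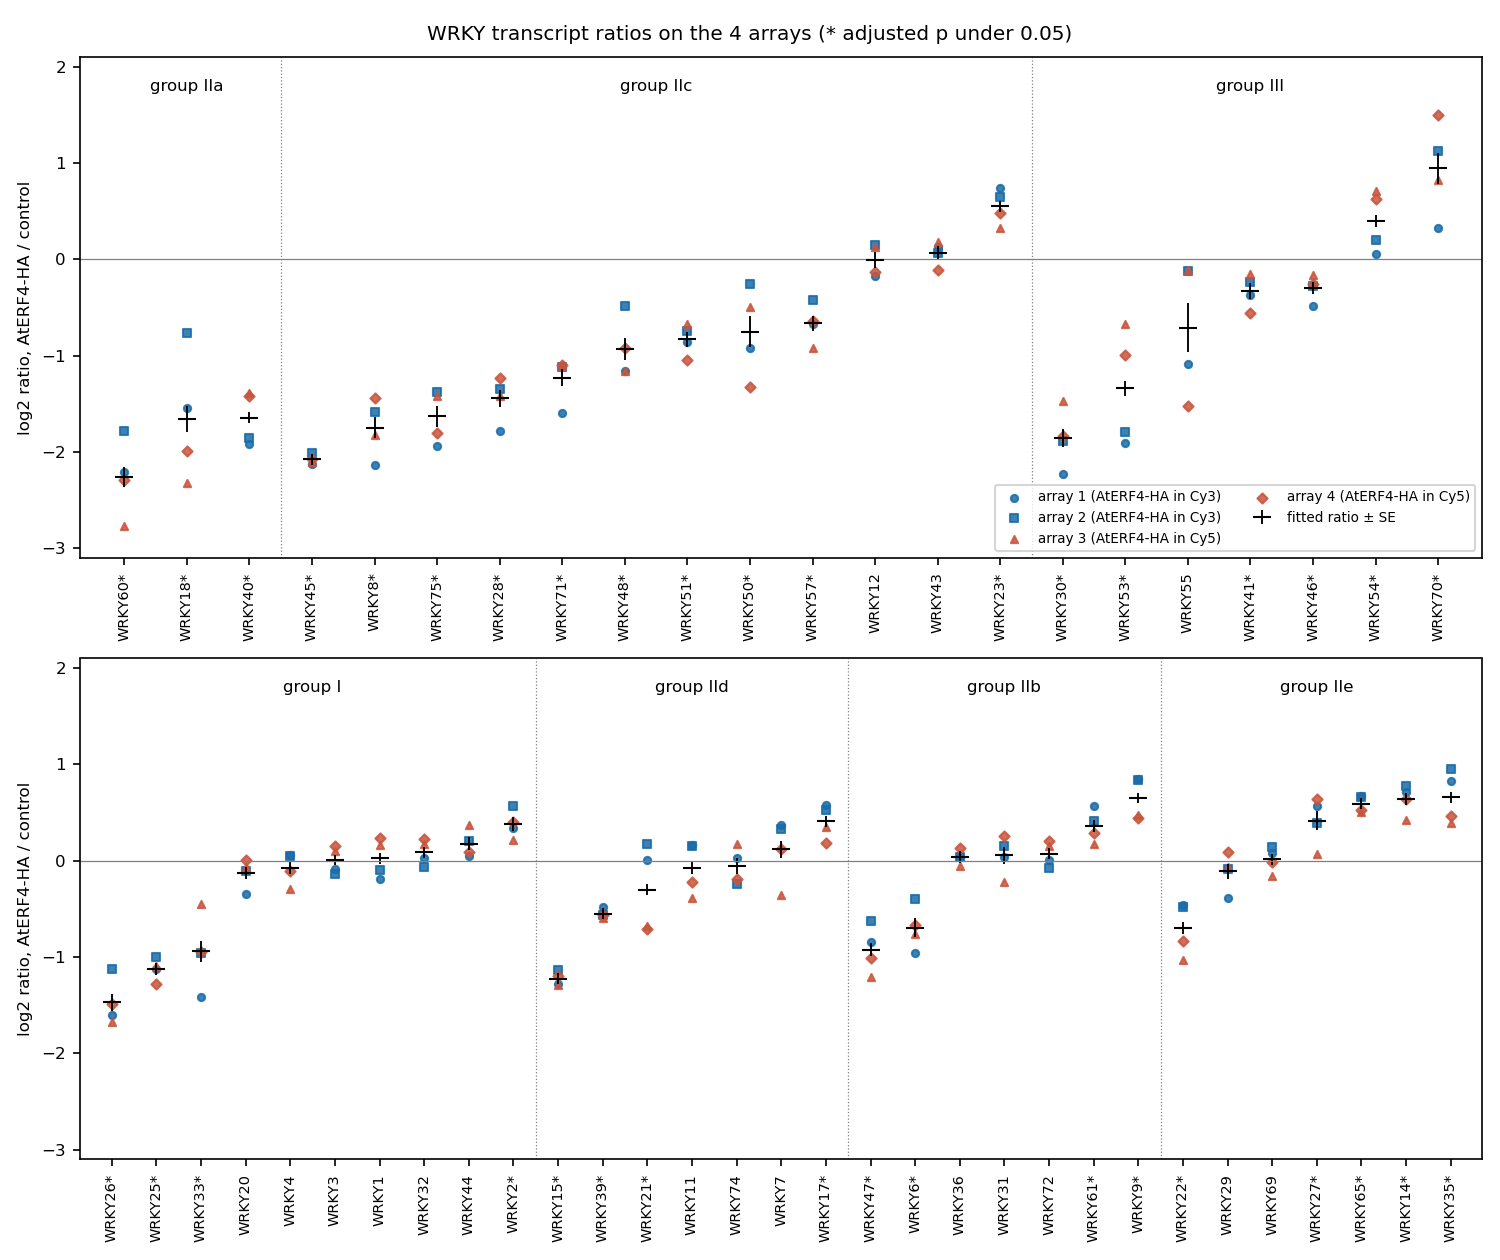
Log2 ratio of AtERF4-HA over control for each of the 53 WRKY members tested, by structural group, on array 1 (circles), 2 (squares), 3 (triangles) and 4 (diamonds), blue where AtERF4-HA was in Cy3 and red where it was in Cy5, with the fitted ratio ± SE in black and a star on called genes. The 3 genes of group IIa lie at -1.64 or lower, and 4 of the 7 genes of group IIe were called higher, beside 21.4% of all genes.

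Group IIa holds WRKY18, WRKY40 and WRKY60, which form complexes with one another and act in basal defence and abscisic acid signalling. All 3 fell, with a group median of -1.65, beside 25.3% lower among all genes. WRKY60 (AT2G25000) had ratios of -2.21, -1.78, -2.77 and -2.29 on arrays 1 to 4, and its log2 signal was 10.57 ± 0.17 in AtERF4-HA and 12.83 ± 0.24 in control (SD, n = 4). It had the lowest ratio of the family, at -2.26 ± 0.11 (SE, 4.79-fold lower, limma adjusted p = 5.6e-05). WRKY18 (AT4G31800) varied most over arrays within the group, with -1.54, -0.76, -2.33 and -1.99. Its mean ratio was -1.15 where AtERF4-HA was in Cy3 and -2.16 where it was in Cy5. Its signal was tight in AtERF4-HA, at 9.40 ± 0.05, and spread in control, at 11.06 ± 0.67, without overlap, for a ratio of -1.65 ± 0.13 (adjusted p = 0.0003). For WRKY40 (AT1G80840) the ratios were -1.91, -1.86, -1.39 and -1.42, from signals of 6.78 ± 0.24 and 8.42 ± 0.33, and the fit gave -1.64 ± 0.05 (3.13-fold lower, adjusted p = 2.4e-05). WRKY40 came to -2.99 with plain background subtraction, and to -1.07 with all spots in the background fit.

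Group IIc, the largest group with 13 listed members, held the most lower members: 9 of 12 tested fell, 1 rose, and the median was -0.88. Among all genes 25.3% were lower and 21.4% higher. WRKY50, WRKY51 and WRKY71 of the 9 were kept through the control channel alone. WRKY45 (AT3G01970) and WRKY75 (AT5G13080), close relatives that act in phosphate starvation and leaf senescence, fell. WRKY45 was the most even of the larger falls, with -2.13, -2.01, -2.10 and -2.07. Its signals of 9.27 ± 0.15 in AtERF4-HA and 11.35 ± 0.15 in control lay far apart, and the ratio was -2.08 ± 0.06 (4.22-fold lower, adjusted p = 1.4e-05). WRKY75 had -1.94, -1.38, -1.41 and -1.80, with signals of 9.07 ± 0.08 and 10.70 ± 0.25, and came to -1.63 ± 0.11 (adjusted p = 0.00017).

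WRKY8 (AT5G46350), WRKY28 (AT4G18170) and WRKY71 (AT1G29860) form another branch of group IIc, with known roles in salt and virus responses, in salicylate synthesis and in shoot branching, in that order. WRKY8 stood at -2.14, -1.58, -1.83 and -1.44 over the arrays, from signals of 7.61 ± 0.10 against 9.36 ± 0.29, and fell, at -1.75 ± 0.11 (adjusted p = 0.00013). WRKY28 stood at -1.78, -1.35, -1.41 and -1.23, from 7.71 ± 0.07 against 9.15 ± 0.20, and fell, at -1.44 ± 0.09 (adjusted p = 0.00011). Array 1 gave the lowest ratio for all of this branch. It did so most for WRKY71, at -1.59 beside -1.12, -1.11 and -1.10, with signals of 6.49 ± 0.08 and 7.72 ± 0.30 and a fitted ratio of -1.23 ± 0.09 (adjusted p = 0.00019). In AtERF4-HA the WRKY71 probe exceeded background clearly on 3 of 4 arrays. Its ratio was -2.92 with plain subtraction, and with all spots in the background fit it was -0.73 and not called (adjusted p = 0.052).

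The other members of group IIc that fell did so by less than 2-fold. WRKY48 (AT5G49520), a repressor of basal defence, had -1.16, -0.49, -1.15 and -0.92, signals of 6.89 ± 0.12 and 7.82 ± 0.32, and a ratio of -0.93 ± 0.12 (adjusted p = 0.0014). WRKY51 (AT5G64810) and WRKY50 (AT5G26170), which mediate repression of jasmonate responses by salicylate, were both dim, well above background in AtERF4-HA on 2 and 1 of 4 arrays. WRKY51 had -0.86, -0.75, -0.67 and -1.04, from 6.59 ± 0.07 against 7.42 ± 0.17, and fell, at -0.83 ± 0.08 (adjusted p = 0.00052). WRKY50 spread more, at -0.93, -0.25, -0.50 and -1.33, its signals of 6.30 ± 0.27 and 7.05 ± 0.42 overlapped, and its ratio was -0.75 ± 0.16 (adjusted p = 0.012). With plain subtraction WRKY51 came to -2.34, WRKY50 to -2.53 and WRKY48 to -1.60. WRKY50 was not called without replicate 1 (adjusted p = 0.0502), nor were WRKY48, WRKY50 and WRKY51 with all spots in the background fit (0.055, 0.16 and 0.10).

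WRKY57 (AT1G69310), which acts in drought tolerance and in jasmonate-induced senescence, had -0.67, -0.42, -0.93 and -0.64, signals of 8.79 ± 0.09 and 9.45 ± 0.17, and a ratio of -0.66 ± 0.08 (adjusted p = 0.0011). The 1 member of group IIc that rose was WRKY23 (AT2G47260), a gene of auxin-dependent root development, at 0.55 ± 0.06 (adjusted p = 0.00088), with 0.74, 0.65, 0.32 and 0.48. WRKY23 came to 0.83 with the authors' value table. WRKY12 and WRKY43 were not called, and WRKY13 was not kept. WRKY43, dim in control, was called higher with the value table (0.70, adjusted p = 0.044).

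**Figure D4:**
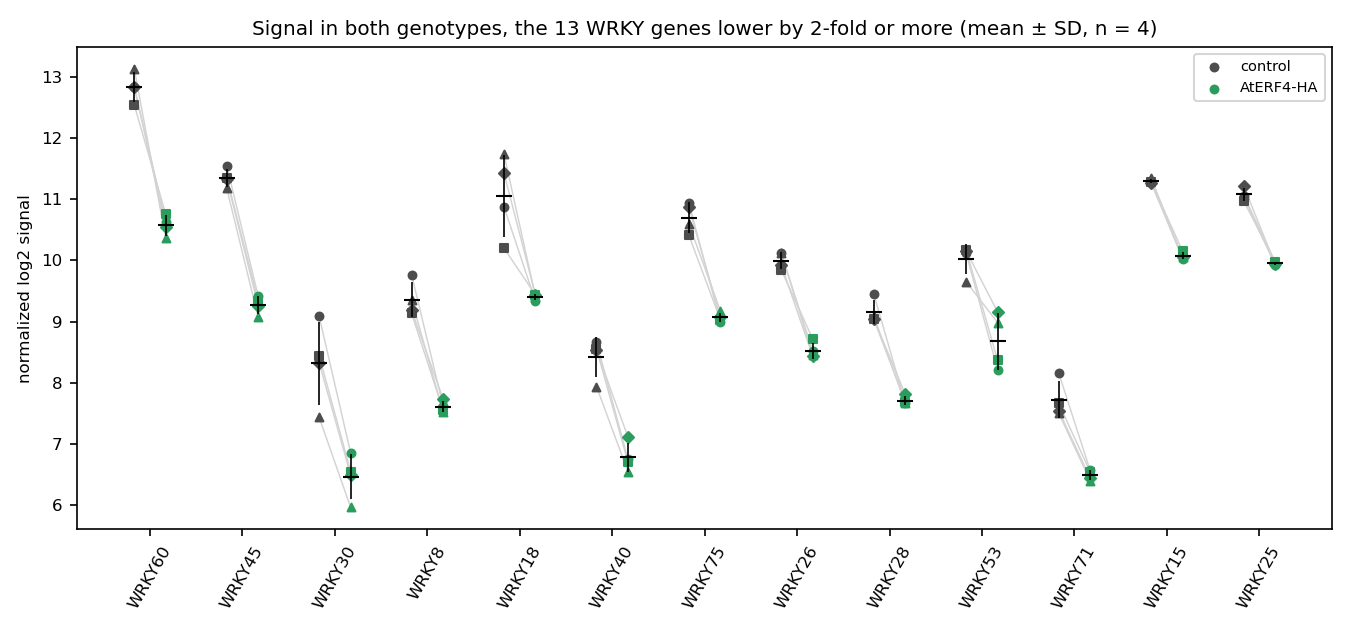
Normalized log2 signal of the 13 WRKY genes lower by 2-fold or more, in control (dark) and AtERF4-HA (green), on array 1 (circles), 2 (squares), 3 (triangles) and 4 (diamonds), with grey lines joining both channels of an array and black marks for the mean ± SD of 4 arrays. In each gene all control points lie above all AtERF4-HA points, as for WRKY30, with 5.96 to 6.86 in AtERF4-HA against 7.44 to 9.08 in control.

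Group III was split. Of 7 members tested 4 fell and 2 rose, with a median of -0.33, beside 25.3% lower and 21.4% higher among all genes. WRKY30 and WRKY41 of the 4 were kept through the control channel alone. WRKY30 (AT5G24110), a gene of oxidative stress responses, had -2.23, -1.89, -1.47 and -1.83. Its signals were 6.47 ± 0.37 in AtERF4-HA, with its probe passing the background test on 2 of 4 arrays, and 8.32 ± 0.68 in control, and it fell, at -1.86 ± 0.09 (adjusted p = 5.9e-05). Plain subtraction gave -4.26 for WRKY30, and all spots in the background fit gave -1.24.

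WRKY53 (AT4G23810), an activator of early leaf senescence, fell on all 4 arrays but by dye in unequal measure, with -1.90 and -1.80 where AtERF4-HA was in Cy3 and -0.67 and -0.996 where it was in Cy5. Its signals, 8.68 ± 0.46 and 10.02 ± 0.25, did not overlap, and the ratio was -1.34 ± 0.07 (2.53-fold lower, adjusted p = 8.2e-05). WRKY70 (AT3G56400) and WRKY54 (AT2G40750), redundant regulators that restrain senescence and take part in salicylate signalling, rose. WRKY70 had 0.33, 1.12, 0.82 and 1.503, signals of 10.54 ± 0.47 and 9.59 ± 0.47 that did not overlap, and the highest ratio of the family, 0.94 ± 0.16 (1.92-fold, adjusted p = 0.0048). WRKY54 was at 0.05, 0.20, 0.71 and 0.63, with a mean ratio of 0.13 where AtERF4-HA was in Cy3 and 0.67 where it was in Cy5. With overlapping signals of 7.37 ± 0.32 and 6.98 ± 0.10, WRKY54 rose by 0.40 ± 0.06 (adjusted p = 0.003). It was not called with all spots in the background fit (0.23, adjusted p = 0.17), and came to 0.92 with plain subtraction, 1.05 with processed signals and 1.16 in the value table.

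WRKY41 (AT4G11070), known from seed dormancy, and WRKY46 (AT2G46400), of salicylate and drought responses, fell by little, at -0.33 ± 0.08 (adjusted p = 0.019) and -0.30 ± 0.06 (adjusted p = 0.011). WRKY41, above background in AtERF4-HA on 2 of 4 arrays, came to -1.18 with plain subtraction. Without replicate 1 neither was called (adjusted p = 0.092 and 0.070), without replicate 4 WRKY41 was not (0.057), and with all spots in the background fit neither was (0.17 and 0.076). WRKY55 (AT2G40740) had -1.09, -0.12, -0.11 and -1.52 and was not called, at -0.71 ± 0.25 (adjusted p = 0.062). It was called without replicate 2 (-0.95, adjusted p = 0.044) or replicate 3 (-1.06, 0.0048).

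In group I, 3 of 10 members tested fell and 1 rose, beside 25.3% lower and 21.4% higher among all genes, so the share that fell was near that of all genes. The 3 were WRKY25, WRKY26 and WRKY33, close relatives that act together in heat tolerance. WRKY26 (AT5G07100) had -1.60, -1.13, -1.67 and -1.49, with signals of 8.53 ± 0.13 and 9.999 ± 0.14, and a ratio of -1.47 ± 0.09 (adjusted p = 0.00012). WRKY25 (AT2G30250) was more even, with -1.13, -1.0, -1.10 and -1.28, signals of 9.96 ± 0.02 and 11.08 ± 0.10, and a ratio of -1.12 ± 0.06 (adjusted p = 8.5e-05). WRKY33 (AT2G38470), which also drives camalexin synthesis against necrotrophic fungi, had -1.42, -0.95, -0.45 and -0.94. Its signals of 10.22 ± 0.28 and 11.16 ± 0.19 did not overlap, and it fell, at -0.94 ± 0.11 (1.92-fold lower, adjusted p = 0.0012).

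WRKY2 (AT5G56270), a gene of zygote polarity and pollen development, was the group I member that rose, by 0.38 ± 0.07 (adjusted p = 0.0061), with 0.34, 0.57, 0.21 and 0.41, and came to 0.62 with the authors' value table. The other group I members tested, WRKY1, WRKY3, WRKY4, WRKY20, WRKY32 and WRKY44, lay between -0.13 ± 0.06 (WRKY20) and 0.18 ± 0.07 (WRKY44, a gene of trichome and seed coat development), and none was called. WRKY44 was called higher without replicate 4 (0.25, adjusted p = 0.049), with processed signals (0.46, 0.023) and in the authors' value table (0.58, 0.011). WRKY32 was called higher with the value table (0.28, adjusted p = 0.014), where the median of all genes was 0.16.

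Group IId proteins bind calmodulin. Of 7 members tested 3 fell and 1 rose, beside 25.3% lower and 21.4% higher among all genes. WRKY15 (AT2G23320), of oxidative and osmotic stress responses, had -1.28, -1.13, -1.29 and -1.20 and signals of 10.07 ± 0.06 and 11.30 ± 0.04. It fell, at -1.22 ± 0.06 (2.34-fold lower, adjusted p = 6e-05). WRKY39 (AT3G04670), of heat responses, fell, at -0.55 ± 0.06 (adjusted p = 0.00067), with -0.48, -0.56, -0.60 and -0.56. WRKY21 was called lower, at -0.30 ± 0.06 (adjusted p = 0.0086), in a fit with a dye term. Its mean ratio was 0.09 where AtERF4-HA was in Cy3 and -0.69 where it was in Cy5, its signals overlapped, and it was not called without a dye term (adjusted p = 0.19), without replicate 1 (0.058) or with the authors' value table (0.091).

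WRKY17 (AT2G24570) rose by 0.41 ± 0.06 (adjusted p = 0.0027), and its close relative WRKY11 (AT4G31550), with which it limits basal resistance to bacteria, had -0.07 ± 0.06 and was not called. WRKY11 was below WRKY17 on all 4 arrays, by 0.48 ± 0.17 (SD, n = 4) in the mean difference of ratios, a pair set side by side after its values had been seen. It was 1 of 16 pairs compared. An exact test that flips the signs of the array differences gave p = 0.125 (adjusted p = 0.18), the smallest p that 4 arrays allow, so the difference is not established. WRKY7 and WRKY74 were not called either, and WRKY7 was called only without replicate 3 (0.24, adjusted p = 0.043).

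Group IIb had 2 lower, 2 higher and 3 uncalled members, shares near the 25.3% lower and 21.4% higher of all genes. WRKY47 (AT4G01720) had -0.85, -0.63, -1.21 and -1.01, signals of 9.40 ± 0.15 and 10.32 ± 0.14, and fell, at -0.92 ± 0.07 (adjusted p = 0.00023). WRKY6 (AT1G62300), of senescence and phosphate responses, had -0.96, -0.40, -0.77 and -0.67, signals of 8.85 ± 0.04 and 9.55 ± 0.27, and fell, at -0.70 ± 0.10 (adjusted p = 0.0024). WRKY9 (AT1G68150), a regulator of root suberin, rose: its ratios were 0.85, 0.83, 0.47 and 0.45, its signals 9.70 ± 0.14 and 9.05 ± 0.20 without overlap, and the fit gave 0.65 ± 0.05 (1.57-fold, adjusted p = 0.00033). WRKY61 (AT1G18860) rose by 0.36 ± 0.06 (adjusted p = 0.0045), but was not called with all spots in the background fit (0.25, adjusted p = 0.057) and came to 0.76 with the authors' value table. WRKY31, WRKY36 and WRKY72 were not called. The value table called WRKY36 (0.23, adjusted p = 0.041) and WRKY72 (0.38, 0.0079) higher, and processed signals called WRKY72 (0.27, 0.023). The median of all genes was 0.16 in the value table and 0.04 with processed signals.

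Group IIe was the one group with more members higher than lower: 4 of 7 rose, 1 fell, and the median was 0.42. Of all genes 21.4% were higher and 25.3% lower. WRKY35 (AT2G34830) had 0.83, 0.95, 0.39 and 0.46, with signals of 8.29 ± 0.11 and 7.63 ± 0.32, and rose by 0.66 ± 0.06 (adjusted p = 0.00041). WRKY35 came to 0.99 with plain subtraction, 1.097 with processed signals and 1.21 in the authors' value table. For WRKY14 (AT1G30650) the ratios were 0.71, 0.77, 0.43 and 0.64 and the signals 9.21 ± 0.11 and 8.57 ± 0.10, for a fitted 0.64 ± 0.06 (adjusted p = 0.0006). Both genes were higher on all 4 arrays, and their signals did not overlap between genotypes. WRKY14 came to 0.98 with the value table. WRKY65 (AT1G29280) was the most even of those that rose, with 0.67, 0.66, 0.51 and 0.53, signals of 11.97 ± 0.13 and 11.37 ± 0.15, and a ratio of 0.59 ± 0.05 (adjusted p = 0.00046).

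WRKY27 (AT5G52830), of responses to bacterial wilt, rose by 0.42 ± 0.10 (adjusted p = 0.018), with overlapping signals, and was not called without replicate 1 (adjusted p = 0.080) or with all spots in the background fit (0.064). WRKY27 was at 0.27 without replicate 4 and at 0.65 with the authors' value table. WRKY22 (AT4G01250) and WRKY29 (AT4G23550) are paired downstream targets of the flagellin-triggered kinase cascade. WRKY22 had -0.46, -0.48, -1.03 and -0.83, signals of 8.18 ± 0.12 and 8.89 ± 0.24, and fell, at -0.70 ± 0.06 (adjusted p = 0.0004), or -0.46 with all spots in the background fit. WRKY29 was not called, at -0.11 ± 0.07, and neither was WRKY69, at 0.01 ± 0.06.

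Over the family, the 17 members tested and not called ranged from -0.71 to 0.18, with standard errors of 0.06 to 0.25. For 6 members, WRKY1, WRKY3, WRKY4, WRKY11, WRKY21 and WRKY69, the sign on arrays 1 and 2 was opposite to that on arrays 3 and 4. The 4 members not kept were well above background on all 4 arrays in neither genotype. WRKY34, a pollen gene, was well above background in no channel of any array, WRKY42 on 1 array in each genotype, and WRKY13 and WRKY38 on 1 array in AtERF4-HA and 2 in control. WRKY38 was uneven in control, with signals of 7.50, 6.24, 7.54 and 6.23, and had ratios of -1.0, -0.10, -1.16 and 0.11.

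Genes of the pattern-triggered kinase pathways that act upstream of WRKY factors were lower or not called. Of 18 listed and tested, 10 fell and 0 rose, with a median of -0.27, beside the 25.3% lower and 21.4% higher of all genes. MPK11 (AT1G01560), a kinase activated by bacterial flagellin, had -2.28, -1.43, -0.92 and -1.68 and fell, at -1.58 ± 0.17 (adjusted p = 0.00089). The receptor-associated kinase gene BIK1 (AT2G39660) had -1.95, -1.37, -1.55 and -1.20 and fell, at -1.52 ± 0.11 (adjusted p = 0.00022). Signals of both genotypes did not overlap in either gene. Plain subtraction gave -2.37 for MPK11, and -1.28 for PROPEP2, described next.

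MKK9 (AT1G73500), a kinase kinase of ethylene and camalexin synthesis, fell, at -0.96 ± 0.10 (adjusted p = 0.00075), and the flagellin receptor gene FLS2 (AT5G46330) at -0.93 ± 0.12 (adjusted p = 0.0019). PROPEP2 (AT5G64890) and PROPEP3 (AT5G64905), precursors of danger peptides, fell, at -0.86 ± 0.10 (adjusted p = 0.0013) and -0.70 ± 0.18 (adjusted p = 0.021). The genes of the kinases that phosphorylate WRKY33, MPK3 and MPK6, were not called, at 0.16 ± 0.06 and -0.05 ± 0.06. MPK3 was called higher with processed signals (0.23, adjusted p = 0.041) and in the authors' value table (0.34, 0.012), and MKK1 in the value table (0.18, 0.041). The median of all genes in the value table was 0.16. The rest of the 10 that fell, named after their values had been seen, were RBOHD, AP2C1, MKK4 and MKK5, at -0.34 to -0.25. Each of them lost its call without replicate 1, in the value table and with all spots in the background fit. AP2C1 also lost it without replicate 2 (0.067) or replicate 4 (0.14), without a dye term (0.083) and with plain subtraction (0.080). The same held with an offset of 16 (0.0504), median centring (0.057) or processed signals (0.12). On array 2 the AP2C1 ratio was 0.0037, and its signals overlapped between genotypes. Without replicate 1, 5 of the list were called in place of 10, beside 14% higher and 17.7% lower among all genes. PROPEP3 was not among those 5 (adjusted p = 0.088). PROPEP3 was at -0.46 without replicate 4, and was not called with processed signals (0.0503) or the value table (0.063). With all spots in the background fit 4 were called, all lower, beside 13.6% higher and 11.9% lower among all genes. PROPEP2 and PROPEP3 were then not called (0.056 and 0.084).

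Of 14 VQ-motif genes 12 were tested, 8 fell and 2 rose, with a median of -0.37, beside the 25.3% lower and 21.4% higher of all genes. JAV1 (AT3G22160), a repressor of jasmonate defence that binds WRKY51, had -1.23, -1.16, -1.60 and -1.39 and fell, at -1.34 ± 0.06 (2.54-fold lower, adjusted p = 5.3e-05). The VQ genes AT2G22880, AT1G78410 and AT5G46780 fell, at -1.21 ± 0.15, -1.16 ± 0.16 and -0.81 ± 0.08 (adjusted p = 0.0013, 0.0021 and 0.00051). With plain subtraction AT2G22880 came to -1.95 and AT1G78410 to -1.88. VQ9 (AT1G78310), which binds WRKY8, fell, at -0.72 ± 0.06 (adjusted p = 0.00039). Those 5 genes, WRKY8 and WRKY51 each had a negative ratio on all 4 arrays. All were named here because they were called lower, so this agreement in sign follows from the choice. Whether VQ genes and their WRKY partners change together was not tested.

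The VQ genes that rose were SIB2 (AT2G41180), whose product binds WRKY33, by 0.55 ± 0.06 (adjusted p = 0.00099), and MVQ4 (AT3G15300), a phosphorylation target of kinases, by 0.48 ± 0.07 (adjusted p = 0.0033), the latter named after its value had been seen. SIB2 came to 1.103 with plain subtraction, 1.20 with processed signals and 1.31 in the authors' value table, and MVQ4 to 0.78 with the value table. SIB1, the close relative of SIB2, fell, at -0.34 ± 0.09 (adjusted p = 0.022), and was named in the same way. The call of SIB1 was lost without replicate 1 (0.11) or replicate 3 (0.066), and with plain subtraction (0.054), processed signals (0.094) or the authors' value table (-0.18, adjusted p = 0.22). With all spots in the background fit 4 VQ genes were called, beside 13.6% higher and 11.9% lower among all genes. AT2G22880 (0.097), AT1G78410 (0.055), SIB1 (0.054), SIB2 (0.13) and MVQ4 (0.066) were then not called. MVQ1 and CAMBP25, also named after their values had been seen, fell, at -0.41 ± 0.07 and -0.31 ± 0.06 (limma adjusted p = 0.005 and 0.007). CAMBP25 was not called in the authors' value table (0.081) or with all spots in the background fit (0.078). MKS1 (AT3G18690) and AT3G18360 were not kept.

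**Figure D5:**
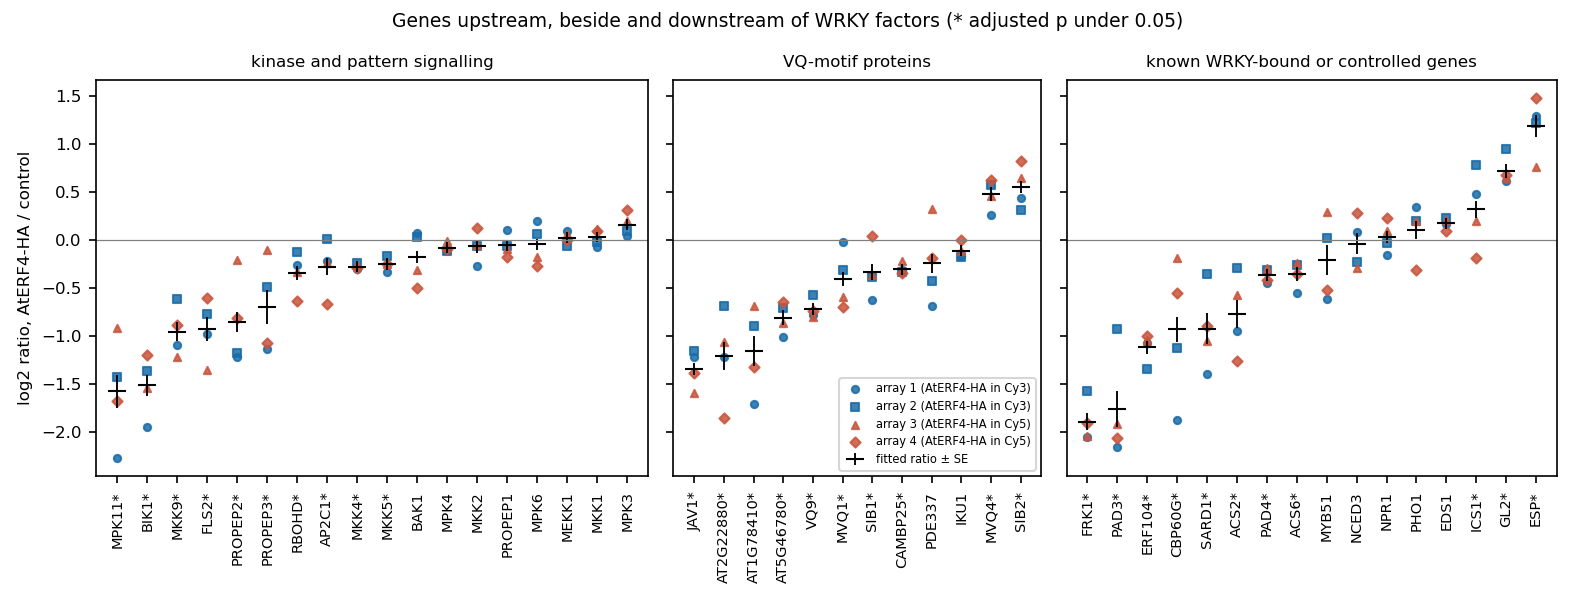
Log2 ratio of AtERF4-HA over control for the tested genes of the kinase and pattern signalling list (18), the VQ-motif list (12) and the list of genes bound or controlled by WRKY factors (16), on array 1 (circles), 2 (squares), 3 (triangles) and 4 (diamonds), blue where AtERF4-HA was in Cy3 and red where it was in Cy5, with the fitted ratio ± SE in black and a star on called genes. Of the kinase and pattern list no gene was called higher, and the lowest values are those of MPK11 (-1.58) and BIK1 (-1.52).

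Of 20 genes known to be bound or controlled by WRKY factors 16 were tested, 8 fell and 3 rose, with a median of -0.28. Among all genes 25.3% fell and 21.4% rose, a share near that of the 3 that rose here. FRK1 (AT2G19190), a receptor kinase gene used as a readout of flagellin signalling through WRKY22 and WRKY29, had -2.06, -1.57, -2.04 and -1.90 and fell, at -1.89 ± 0.09 (3.72-fold lower, adjusted p = 5.9e-05). PAD3 (AT3G26830), the last enzyme of camalexin synthesis and a target of WRKY33, had -2.16, -0.93, -1.91 and -2.06 and fell, at -1.77 ± 0.19 (adjusted p = 0.00078). ERF104 (AT5G61600), an ethylene response factor gene, fell, at -1.12 ± 0.07 (adjusted p = 0.00011). With all spots in the background fit FRK1 was at -1.26. In FRK1, PAD3 and ERF104 the signals of both genotypes did not overlap.

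CBP60G (AT5G26920) and SARD1 (AT1G73805), which drive salicylate synthesis, both fell, at -0.93, with errors of 0.13 and 0.16 (adjusted p = 0.0024 and 0.0052). CBP60G ran from -1.87 on array 1 to -0.19 on array 3, with a mean ratio of -1.50 where AtERF4-HA was in Cy3 and -0.37 where it was in Cy5. The signals of SARD1 overlapped between genotypes, and its probe passed the background test in AtERF4-HA on 3 of 4 arrays. SARD1 was not called with all spots in the background fit (-0.48, adjusted p = 0.064) and came to -2.0 with plain subtraction.

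ESP (AT1G54040), whose product steers glucosinolate breakdown and interacts with WRKY53, had 1.29, 1.21, 0.76 and 1.48 and rose by 1.18 ± 0.12 (2.27-fold, adjusted p = 0.00061). The other genes that rose, named after their values had been seen, were GL2 (AT1G79840), of trichome fate, by 0.72 ± 0.07 (adjusted p = 0.00065) and the salicylate synthesis gene ICS1 (AT1G74710) by 0.32 ± 0.09 (adjusted p = 0.030). ICS1 was higher on 3 of 4 arrays and had a mean ratio of 0.63 where AtERF4-HA was in Cy3 and 0.0068 where it was in Cy5. The call of ICS1 was lost under 7 alternatives: without replicate 2 (adjusted p = 0.14) or replicate 3 (0.097), without a dye term (0.13), and with plain subtraction (0.061), the mean over probes (0.052), median centring (0.063) or all spots in the background fit (0.083). Of all 20, 7 were called with all spots in the background fit, beside 13.6% higher and 11.9% lower among all genes. The remaining genes of the list that fell, ACS2, PAD4 and ACS6, were also named after their values had been seen. They were at -0.77 ± 0.15, -0.37 ± 0.06 and -0.36 ± 0.07 (limma adjusted p = 0.0074, 0.0042 and 0.0087). ACS2 came to -1.67 with plain subtraction. With all spots in the background fit ACS2 (0.14) and ACS6 (0.065) were not called, nor was ACS6 in the authors' value table (0.074). PR1, SAG12, CYP71A13 and NCED5 were not kept.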

How the data were processed

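The authors deposited spot intensities of both dyes from Agilent Feature Extraction 9.1.3.1, with background-subtracted and dye-normalized intensities and log10 ratios of Cy5 over Cy3, per the file headers. The authors' value table holds natural log ratios, not centred on 0, with a slope of 0.693 on the scanner files' log2 ratios, and its making is not stated. From median signals, ratios were made in R 4.3.3 with limma 3.58.1: normexp with an offset of 50, loess with 1417 control spots at weight 0, the brightest kept probe per gene, and a fit of genotype and dye over 4 arrays with 2 residual degrees of freedom. Log2 levels per genotype came from loess and Aquantile scaling. The offset of 50 shrinks ratios of dim genes. The number of arrays limits precision, and the standard errors leave out the spread between the dye orientations, which the dye term takes up. P-values were adjusted by Benjamini-Hochberg over 19443 genes, and 54 genes were left out for a missing array.

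Spots with a local background over 2 times the array median had it set to that median in both channels before the normexp fit. Their ratios were then left out. This was a departure from the design, made after a first fit over all spots and its WRKY values had been seen. The members and gene lists were chosen with earlier results of these data known. Members past 1.5-fold are given in full and other called members by ratio. For each other list, at most 6 called genes were chosen by absolute ratio, and further genes were named after their values had been seen. Probes were named by locus through the deposited annotation, and symbols and synonyms through RefSeq. The fit was tested on simulated data. Alternatives covered background correction, normalization, filters, probes, the dye term and leaving out each replicate.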

Additional observations from a re-analysis of the deposited data

Results flagged for a closer look

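WRKY71 on replicate 1 stood apart from the other arrays, at a log2 ratio of -1.59 beside -1.12, -1.11 and -1.10. The gap to the nearest array was 0.974 of the whole range. It was the 1 gene so marked among 100 examined, and such a test also marks some genes by chance.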

How the results depend on the processing

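No called WRKY gene changed sign under any of the 15 alternatives run. Fitting the background over all spots was the first fit made, and spots were left out only after its WRKY values had been seen. Set against the reported fit, it ended 9 of the 36 member calls and left 4963 genes called in place of 9086. Of all genes 13.6% were then called higher and 11.9% lower. It left 4 called of the kinase and pattern list in place of 10, 4 of the VQ list in place of 10 and 7 of the target list in place of 11. With the authors' value table the WRKY median was 0.015 in place of -0.13, and the median of all genes there was 0.16. Leaving out 1 replicate at a time gave 5 to 10 called genes of the kinase and pattern list, with 5 calls of WRKY genes lost without replicate 1 and 1 without replicate 4. Dim probes limit the size of a ratio: plain subtraction moved WRKY30 from -1.86 to -4.26 and WRKY50 from -0.75 to -2.53. Both genotypes of a replicate share an array, so the reported ratios are paired by replicate.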

Other observations

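A further 15 loci carry a WRKY name in RefSeq and a probe, but are not among the 57 members. Of these 8 were tested and 3 were called lower with limma, where 25.3% of all genes were called lower. WRKY49 was at -0.94 ± 0.21 (SE), with its probe above background on 1 array in AtERF4-HA. WRKY56 was at -0.46 and WRKY58 at -0.43, the latter with its probe above background on 2 arrays in AtERF4-HA. WRKY49 and WRKY58 were kept through the control channel alone. WRKY10, WRKY59, WRKY62, WRKY64, WRKY66, WRKY67 and WRKY68 were not kept.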
